A study of Arabidopsis thaliana with 7 samples.

Results

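AT4G22450, AT5G38910 and AT2G15560 are 3 genes of Arabidopsis thaliana whose root signal was lower in a line carrying an ANR1-GR fusion than in the wild type. They were picked by their locus names, through the probe annotation, because earlier results of these same arrays had shown them lower in the line. They are 3 of 13355 genes that the annotation pairs with a probe set of their own, and each is read by 1 of the 22810 probe sets on the array. Their line against wild type differences are therefore a description, and no test of those differences is given.

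ANR1 is a MADS-box transcription factor of the root nitrate response, known in Arabidopsis for its link to lateral root growth in nitrate-rich patches. MADS-box proteins bind DNA as dimers or larger complexes and can raise or lower their targets. A fusion to the steroid-binding domain of the glucocorticoid receptor is kept in the cytoplasm until a steroid such as dexamethasone is supplied, after which it can enter the nucleus. In the simplest case the fusion stays out of the nucleus without the steroid, and its targets change within the treatment time. A gene that follows the nuclear fusion protein would then be seen in the dexamethasone comparison. A gene that differs between the line and the wild type for another reason would be seen without the steroid too. Neither condition was tested, so the dexamethasone comparison cannot tell these cases apart by itself.

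The study used 7 one-colour ATH1 arrays of root RNA, pooled from 20 plants per sample, in 4 groups labelled as 2 biological replicates. The line with 1 µM dexamethasone had 1 array, from replicate 2. The line without dexamethasone, the wild type with 1 µM dexamethasone and the wild type without dexamethasone had 2 arrays each. All plants were starved of nitrogen for 2 days, and after 9 days they were moved for 1 h to plates with or without the steroid, so the untreated groups were moved as well. The line, labelled ANGR4-12, is a single transgenic line in the C24 ecotype that expresses the ANR1::rGR fusion strongly from the 35S promoter. For the wild type the ecotype entry reads only Control, so the transgene, its insertion site and any difference in background cannot be told apart. With 7 arrays, precision is low in every comparison, and a lower signal cannot be separated into fewer cells of a type and less RNA per cell.

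The arrays divided only partly by replicate. Log2 signals of any 2 arrays with equal replicate numbers correlated at 0.958 to 0.988, and those of 2 arrays with unequal numbers at 0.911 to 0.962. These ranges overlapped, and the treated line of replicate 2 correlated at 0.962 with the untreated line of either replicate. The 3'/5' signal ratio of the GAPDH control, a measure of RNA quality, spanned 1.18 to 1.55 on the replicate 2 arrays and at most 1.12 on those of replicate 1, and the actin ratio reached 1.59 in the untreated line of replicate 2 against 0.251 to 0.876 on the other 6 arrays. No probe set in the annotation was paired with ANR1, so expression of the fusion was not checked here. All 3 root markers with a probe set had a mean signal above 50, the minimum for testing. The summed signal of these 3 (AT5G17820, EXPA18 and EXPA7) was 959 to 1393 in the line and 1409 to 1795 in the wild type. Only AT5G17820 separated the groups, at 738.3 to 1087.4 in the line and 1102.6 to 1443.5 in the wild type. All line arrays lay below all wild type arrays for 0.874% of tested probe sets. EXPA18 overlapped, at 179 to 200 in the line and 177 to 313 in the wild type. EXPA7 did too, at 27.0 to 127 in the line and 38.2 to 128 in the wild type. Other listed root markers had no probe set in the annotation. The summed signal of 3 green tissue markers (RCA, SBPASE and PRK) was 156 to 256 in the line and 133 to 288 in the wild type. The part of these marker differences in the results below was not tested.

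The reference annotation lists AT4G22450 as a pseudogene and the other members as protein-coding. Neither table used here gives any of them a function. The probe set of AT4G22450, 254312_s_at, carries the _s_at suffix, by which the maker marks probes that can read more than 1 transcript, so its signal may hold RNA of a related gene. The probe sets 249476_at of AT5G38910 and 265486_at of AT2G15560 have no such suffix. The 3 genes lie on 3 different chromosomes, 4, 5 and 2.

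AT4G22450 separated the line from the wild type most evenly. The treated line gave a signal of 69.7. Without the steroid the line gave 45.2 and 70.7 in replicates 1 and 2. The wild type gave 163 and 156 with dexamethasone and 170 and 155 without it, in the same order of replicates. The highest line array therefore stood at 0.455 of the lowest wild type array. The mean signal was 61.9 ± 14.4 in the line (SD, n = 3) and 161 ± 7.10 in the wild type (SD, n = 4), a ratio of 0.384. The 4 wild type arrays varied little, with a coefficient of variation of 4.41%, against 23.3% among the 3 line arrays. From low to high, the order was the untreated line (58.0 ± 18.0, SD, n = 2), the treated line (69.7), the treated wild type (159 ± 5.44, SD, n = 2) and the untreated wild type (163 ± 10.5, SD, n = 2). The 2 line groups did not differ beyond the spread of the untreated line, nor did the 2 wild type groups differ beyond theirs.

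**Figure D1:**
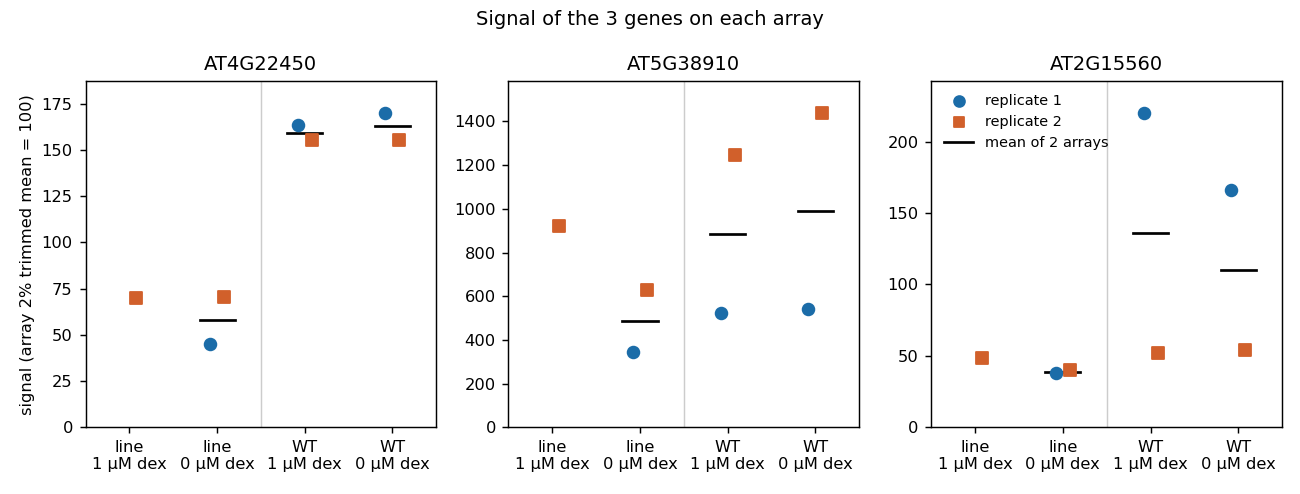
Signal (linear, scaled so that the 2% trimmed mean of an array is 100) of the 3 genes on each of the 7 arrays, with the line on the left and the wild type (WT) on the right of each panel. Circles are replicate 1, squares replicate 2, and bars the mean of 2 arrays. AT4G22450 is at 45.2 to 70.7 in the line and 155 to 170 in WT, AT5G38910 is higher in replicate 2 in both, and AT2G15560 exceeds 100 only in the replicate 1 wild type.

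AT5G38910 separated the line from the wild type only among arrays of the same replicate. The line gave a signal of 921 with dexamethasone, and of 346 and 628 without it in replicates 1 and 2. In the wild type it had 522 and 1247 with dexamethasone and 543 and 1441 without it, in replicates 1 and 2. The groups overlapped, since both replicate 2 line arrays exceeded both replicate 1 wild type arrays. The mean was 632 ± 288 in the line (SD, n = 3) and 938 ± 475 in the wild type (SD, n = 4). The lowest group mean was that of the untreated line (487 ± 199, SD, n = 2), followed by the treated wild type (884 ± 513, SD, n = 2), the treated line (921) and the untreated wild type (992 ± 634, SD, n = 2), and no 2 neighbours in this order differed beyond their spread.

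AT2G15560 was high on 2 arrays only, those of the replicate 1 wild type. The line gave 48.6 with dexamethasone, and 38.3 and 39.9 without it in replicates 1 and 2. The treated wild type had 220 and 51.8, and the untreated wild type 166 and 54.4, in replicates 1 and 2. The 3 line arrays lay below all 4 wild type arrays, but the highest line array reached 0.938 of the lowest wild type array. In the wild type the mean was 193 ± 38.5 in replicate 1 and 53.1 ± 1.84 in replicate 2 (SD, n = 2 each), and over the 3 line arrays it was 42.3 ± 5.54 (SD, n = 3). Ordered by level, the untreated line (39.1 ± 1.13, SD, n = 2) was lowest, then the treated line (48.6), the untreated wild type (110 ± 78.8, SD, n = 2) and the treated wild type (136 ± 119, SD, n = 2). The wild type groups did not differ from each other beyond their spread.

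Groups that do not overlap were uncommon but not rare. All 3 line arrays lay below all 4 wild type arrays for 89 of 10183 tested probe sets (0.874%), and above them for 116 (1.14%). AT4G22450 and AT2G15560 are among the 89, and AT5G38910 is not.

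The comparison within replicate and treatment used 3 pairs of arrays: the untreated pair of replicate 1, the untreated pair of replicate 2 and the treated pair of replicate 2. The treated wild type of replicate 1 had no partner. Each of the 3 genes was lower in the line in all 3 pairs, as were 651 of the 10183 tested probe sets (6.39%). AT4G22450 and AT5G38910 were lower by at least 0.1 on the log2 scale in all 3 pairs, as were 140 of the tested probe sets (1.37%). Nothing is read from these counts, because the genes were chosen for them.

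AT4G22450 had its strongest difference in replicate 1. On the log2(signal + 16) scale its difference was -1.61 in the untreated pair of replicate 1, where the line had 45.2 and the wild type 170. It was -0.98 in the untreated pair of replicate 2 (70.7 and 155) and -1.001 in the treated pair of replicate 2 (69.7 and 156). The mean over the 3 pairs was -1.20 ± 0.35 (SD). The linear ratio of the line to the wild type was 0.266 in the first pair, 0.455 in the second and 0.448 in the third. The difference ranked 2nd lowest of all 10183 probe sets in the first pair, 155th in the second and 2nd in the third. A difference of -0.5 or lower in all 3 pairs was found for 2 probe sets (0.0196%), namely that of AT4G22450 and 257722_at. The latter has no gene in the annotation and was named after its values were seen. Nothing is read from these ranks or this count, because AT4G22450 was chosen for its line difference.

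AT5G38910 had its strongest log2 difference in the untreated pair of replicate 2, the pair in which the tested probe sets spread most. There, at 628 in the line and 1441 in the wild type, the log2 difference was -1.18. In the untreated pair of replicate 1, where the line had 346 and the wild type 543, it was -0.63. With dexamethasone, at 921 in the line and 1247 in the wild type, it was -0.43. Its mean over the 3 pairs was -0.75 ± 0.39 (SD), and all 3 values lay below the 5th percentile of the tested probe sets in their pair. Among the tested probe sets it ranked 56th lowest in the untreated pair of replicate 1. It ranked 74th in the untreated pair of replicate 2 and 316th in the treated pair.

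AT2G15560 differed clearly in 1 pair. The untreated pair of replicate 1 differed by -1.74 on the log2 scale (line 38.3, wild type 166), the lowest of all 10183 probe sets in that pair. The log2 difference was -0.33 in the untreated pair of replicate 2 (line 39.9, wild type 54.4) and -0.070 in the treated pair (line 48.6, wild type 51.8). Both replicate 2 values lay inside the central 90% of the tested probe sets.

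**Figure D2:**
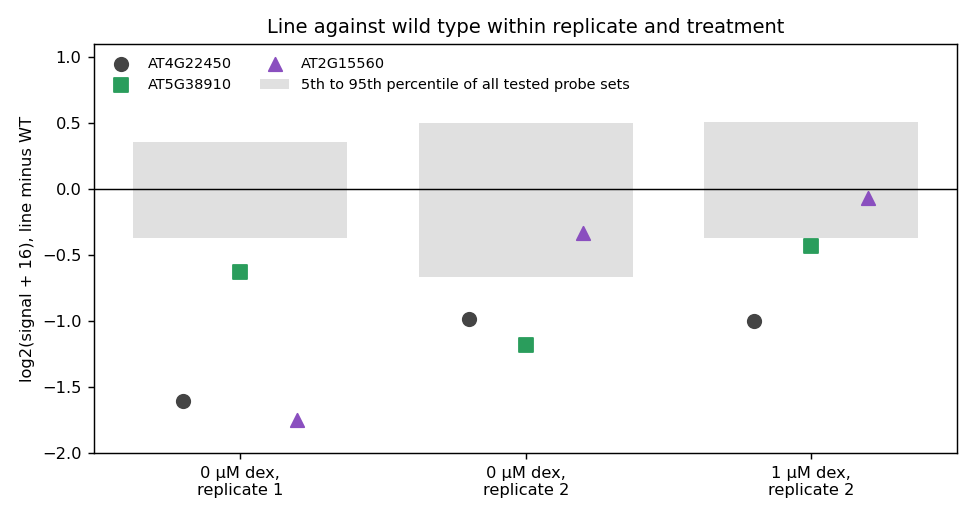
Log2(signal + 16) of the line minus the wild type (WT) within each of the 3 array pairs of the same replicate and treatment, for the 3 genes. Grey bars span the 5th to 95th percentile of the 10183 tested probe sets in that pair. AT4G22450 and AT5G38910 are below the bar in each pair, and AT2G15560 only in the untreated pair of replicate 1, at -1.74.

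Fitted with a term for the line and one for the steroid, the log2 difference of the line from the wild type was -1.19 ± 0.15 (SE) for AT4G22450, -1.01 ± 0.47 (SE) for AT2G15560 and -0.47 ± 0.46 (SE) for AT5G38910. These were the lowest, the 2nd lowest and the 26th lowest of 10183 tested probe sets. With the replicate number as a block AT5G38910 moved to -0.71 ± 0.15 (SE) and the 6th lowest place, while AT4G22450 stood at -1.22 and AT2G15560 at -0.82. Without dexamethasone the differences were -1.29, -0.90 and -1.04 for AT4G22450, AT5G38910 and AT2G15560. With dexamethasone the difference was -1.03 for AT4G22450, and -1.09 with the block. For AT2G15560 it was -0.97, and -0.45 with the block. Dropping replicate 1 of the treated wild type gave -0.070, and dropping its replicate 2 gave -1.87. For AT5G38910 it was 0.19, and -0.39 with the block. Here the same omissions gave -0.43 and 0.80. The treated line has only a replicate 2 array, whereas the treated wild type arrays come from both replicates. Single arrays moved the values of AT5G38910 and AT2G15560 by over 1.5 times. Over both treatments AT5G38910 was at -0.013, the 4756th lowest, without replicate 2 of the untreated wild type, and at -0.15, the 2191st lowest, without replicate 1 of the untreated line. It was at -0.90 without the treated line, at -0.75 without replicate 1 of the treated wild type and at -0.70 without replicate 1 of the untreated wild type. AT2G15560 was at -0.66 over both treatments without replicate 1 of the untreated wild type. In the untreated comparison AT5G38910 was at -0.21 and AT2G15560 at -1.72 without replicate 2 of the untreated wild type, and at -1.59 and -0.35 without its replicate 1. Without replicate 1 of the untreated line AT5G38910 was at -0.49 there. Over both treatments limma called 0 of 10183 probe sets (0%) at an adjusted p under 0.05, and 1 with the block (0.00982%), which was not a member. Before adjustment, 55 probe sets were under 0.05.

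Among 45 annotated genes whose 3 line arrays all lay below the 4 wild type arrays, the next differences after AT4G22450 and AT2G15560 were -0.47 for AT5G01610, -0.44 for AT1G43560 and -0.43 for AT3G52870. AT5G01610 had a signal of 70.2 ± 10.7 in the line (SD, n = 3) and 102 ± 5.76 in the wild type (SD, n = 4). AT5G38910, at -0.47 with overlapping groups, had the same size as AT5G01610. The unannotated probe set 257722_at, at 110 to 147 in the line and 174 to 302.0 in the wild type, came 3rd lowest of all tested probe sets at -0.81. The gap after AT2G15560 therefore holds only among annotated genes whose groups did not overlap. Annotated genes with overlapping groups lay inside it, such as matK at -0.77 and AT3G60420 at -0.60.

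Whether dexamethasone added to the difference was tested as the response of the line minus the response of the wild type. In this design the unblocked estimate is uncorrelated with the unblocked line difference over both treatments. Its correlation with the differences within pairs, for which the genes were also chosen, was not computed. Independence from the choice of genes is therefore not shown. No added effect passed the threshold for any of the 3 genes, and limma called 0 of 10183 probe sets (0%), with 76 at an unadjusted p under 0.05. The blocked fit also called 0 (0%), with 721 under 0.05 before adjustment. On simulated data into which such effects had been put, the unblocked test made no call either. Its lack of calls here therefore does not show that dexamethasone added nothing.

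For AT4G22450 the added effect was 0.26 ± 0.33 (SE) on the log2 scale, with a 95% interval of -0.54 to 1.06 and an adjusted p of 1.00 by limma. The blocked value was 0.21, with an interval of -0.50 to 0.91. Within replicate 2 the treated pair minus the untreated pair gave -0.018. The steroid left both signals almost where they were in replicate 2, at 69.7 with and 70.7 without it in the line, and at 156 with and 155 without it in the wild type.

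The added effect for AT5G38910 was 1.09 ± 0.94 (SE), with a 95% interval of -1.20 to 3.38 and an adjusted p of 1.00. With the block it was 0.52 ± 0.26 (SE), with an interval of -0.098 to 1.13 and an adjusted p of 0.701. Within replicate 2 the signal was 921 with dexamethasone and 628 without it in the line, a ratio of 1.47, and 1247 with it and 1441 without it in the wild type, a ratio of 0.865. The line difference was thus smaller in the treated pair by 0.75 on the log2 scale, a value that rests on 4 arrays with 1 per group. The untreated line array in it is the one with the actin ratio of 1.59, and the part of RNA quality in this value was not tested.

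AT2G15560 had an added effect of 0.068 ± 1.05 (SE), with a 95% interval of -2.47 to 2.61, and of 0.59 ± 0.62 (SE) with the block, with an interval of -0.86 to 2.04. The adjusted p was 1.00 without and 0.825 with the block. The unblocked interval holds a log2 change of 2 in either direction, and the sign of the unblocked value changed when single arrays were left out.

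Dexamethasone alone was examined in the wild type, where no fusion is present. Its log2 effect was -0.027 ± 0.21 (SE) for AT4G22450, -0.13 ± 0.60 for AT5G38910 and 0.16 ± 0.66 for AT2G15560, each with an adjusted p of 1.00 by limma. Of the 10183 probe sets 0 passed (0%), and 19 had an unadjusted p under 0.05. The treated line has only a replicate 2 array and the untreated line has both replicates. The unblocked effect in the line therefore also holds part of the replicate difference. With the block this effect was 0.18 for AT4G22450, 0.38 for AT5G38910 and 0.75 for AT2G15560. Without the block it was 0.23 ± 0.26 (SE) for AT4G22450, 0.96 ± 0.73 for AT5G38910 and 0.23 ± 0.81 for AT2G15560. Their adjusted p was 1.00, and 0 probe sets passed (0%), with 54 under 0.05 before adjustment. The block left both counts at 0 (0%), with 115 in the wild type and 603 in the line under 0.05 before adjustment. The single largest step among the members was the ratio of 1.47 for AT5G38910 in the line of replicate 2, and AT2G15560 had a ratio of 1.33 in the wild type of replicate 1, at 220 with and 166 without the steroid.

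**Figure D3:**
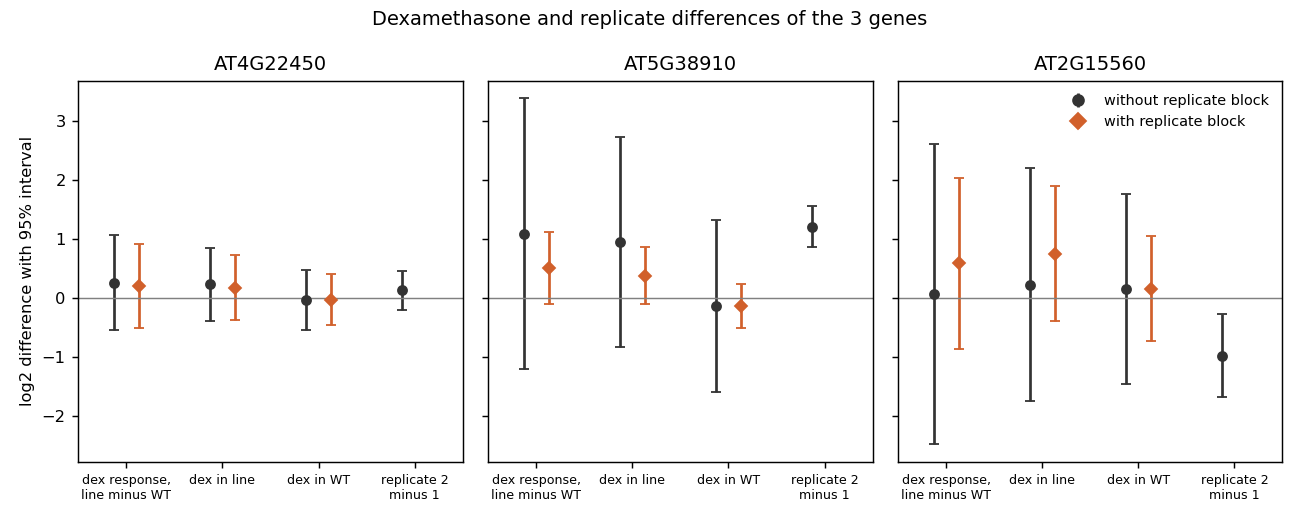
Log2 differences with 95% intervals from limma for the 3 genes: the line's dexamethasone response less the wild type's (WT), dexamethasone in the line, dexamethasone in WT, and replicate 2 minus replicate 1. Circles are without and diamonds with the replicate number as a block, which the replicate comparison already holds as a term. The intervals of all dexamethasone comparisons include 0, and those of the replicate comparison exclude it for AT5G38910 (0.86 to 1.56) and AT2G15560 (-1.67 to -0.27).

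The replicates separated the 3 genes from one another. AT5G38910 rose in replicate 2, by 1.21 ± 0.15 (SE) on the log2 scale with an adjusted p of 0.00523 by limma, a comparison in which 1167 of 10183 probe sets were called (11.5%), 573 of them higher (5.63%) and 594 lower (5.83%) in replicate 2. Replicate 2 over replicate 1 was 2.65-fold in the untreated wild type, 2.39-fold in the treated wild type and 1.82-fold in the untreated line, so all 3 matched pairs had the same direction. The call was lost without the treated wild type of replicate 1 (1.11, adjusted p 0.109) or the untreated line of replicate 1 (1.31, adjusted p 0.0607). The GAPDH 3'/5' ratio was also higher on every replicate 2 array, and its part in this difference was not tested.

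AT2G15560 was lower in replicate 2 in the wild type pairs but not in the line pair. Replicate 2 over replicate 1 was 0.328 in the untreated wild type and 0.235 in the treated wild type, whereas it was 1.04 in the untreated line. Its fitted replicate difference was -0.97 ± 0.30 (SE) with an adjusted p of 0.0737, which did not pass. Leaving out either array of the untreated line made it pass, at -1.17 (adjusted p 0.0173) without replicate 2 and -1.59 (adjusted p 0.0266) without replicate 1. Green tissue markers moved with the replicate too, with a summed signal of 133 to 180 on replicate 2 arrays and of 256 to 288 on replicate 1 arrays. The replicate 1 line array, where AT2G15560 was at 38.3, had the lowest of the replicate 1 sums, at 256. The part of these markers was not tested. For AT4G22450 the replicate difference was 0.13 ± 0.14 (SE) with an adjusted p of 0.565, and the ratios were 0.913, 0.953 and 1.56 in the untreated wild type, the treated wild type and the untreated line.

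A comparison added after the signals had been seen asked whether the line difference itself differed between the replicates. For AT2G15560 the line difference in replicate 2 minus that in replicate 1 was 1.64 ± 0.26 (SE). The same quantity was 0.60 ± 0.22 (SE) for AT4G22450 and -0.25 ± 0.34 (SE) for AT5G38910. These same signals prompted the comparison, so the members' values are a description and no p-value is read from them. This fit left 2 residual degrees of freedom and called 0 probe sets (0%), with 159 at an unadjusted p under 0.05.

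The tested neighbours of the 3 genes had small line differences. Of the 30 genes that lie within 5 places of a member on either side in the reference gene order, 16 had a probe set and 5 were bright enough to be tested. Their line differences ran from -0.13 to 0.28 on the log2 scale, and 0 were at -1 or lower. AT4G22460, next to AT4G22450, had a signal of 130 ± 9.88 in the line (SD, n = 3) and 104 ± 15.3 in the wild type (SD, n = 4). AT4G22440, on its other side, was dim, at 10.3 ± 0.95 in the line (SD, n = 3) and 11.7 ± 1.39 in the wild type (SD, n = 4). The nearest tested genes to the remaining members were AT5G38900, at 273 ± 20.4 in the line and 300.3 ± 24.5 in the wild type, and AT2G15580, at 118 ± 15.4 in the line and 108 ± 12.0 in the wild type (SD, n = 3 and 4).

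The locus AT5G38910 adjoins a run of genes drawn up as germin-like proteins, a plant family of secreted, cupin-fold cell wall proteins. The list of 31 such loci came from general knowledge of the genome. It left out AT5G38910 itself, whose own membership of the family was not checked. The reference names 11 of them as germin-like, of which 0 have a probe set in the annotation, and 11 others of the list have one, so the family membership of the measured loci was not checked in the tables. Of the 11 with a probe set 2 were tested and 0 passed between the line and the wild type. AT1G18980 had 1387 ± 111 in the line (SD, n = 3) and 1413 ± 53.8 in the wild type (SD, n = 4), which is -0.036 on the log2 scale. AT3G10080 had 145 ± 36.3 in the line and 140 ± 36.4 in the wild type (0.076 on the log2 scale), and it was the 1 of these 2 that rose in replicate 2, by 0.58 on the log2 scale, beside 573 of 10183 tested probe sets (5.63%). AT5G38960, in the same run as AT5G38910, was dim at 29.6 ± 4.61 in the line and 31.9 ± 8.68 in the wild type (SD, n = 3 and 4). The median line difference of the 2 tested loci was 0.020, beside -0.00035 over all tested probe sets.

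MADS-box relatives of ANR1, transcription factors of the same family, were listed as well. Of 10 listed, 6 had a probe set and 3 were tested, of which 0 passed in any comparison, beside 0% of all tested probe sets in the line and dexamethasone comparisons and 11.5% in the replicate comparison. Nothing is read from these 3. AGL16 had 127 ± 18.0 in the line and 112 ± 11.9 in the wild type, AGL21 had 63.9 ± 10.9 in the line and 54.0 ± 14.4 in the wild type, and AGL18 had 56.3 ± 11.7 in the line and 45.4 ± 4.75 in the wild type (SD, n = 3 and 4). Their median line difference was 0.21 on the log2 scale, with 0 of 3 below 0, where 50.2% of all tested probe sets were below 0.

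The annotated genes whose pattern over the 7 arrays was most like that of each member were ranked by Pearson's r of log2 signals, among tested genes with at least 0.5 of the member's range. These are descriptions over 7 arrays that share the replicate structure. For AT4G22450 the highest values were 0.72 for AT3G60420, 0.68 for AT2G15560, 0.64 for AT3G44330, 0.62 for AT5G63150 and 0.59 for AT2G07180. AT3G60420 had 96.8, 31.4 and 127 on the treated, untreated replicate 1 and untreated replicate 2 line arrays, and 108 to 168 in the wild type, so its groups overlapped. After the mean of each replicate was subtracted, the highest were AT3G60420 (0.90), AT2G07180 (0.87), AT5G38910 (0.85), AT2G15560 (0.84) and AT1G26390 (0.74).

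AT5G38910 resembled genes that were higher in replicate 2. They were AT5G51830 (0.93), AT3G01730 (0.90), AT2G30930 (0.88), AT4G37290 (0.86) and CHIL (0.85), a chalcone isomerase-like gene of flavonoid synthesis. Their line differences were small, from -0.081 for AT5G51830 to 0.10 for AT4G37290 on the log2 scale. After the mean of each replicate was subtracted, the closest genes were AT5G42830 (1.00), AT3G07720 (0.94), AT4G08410 (0.89), AT5G17820 (0.88) and AT3G05000 (0.87). AT5G42830 had 151 ± 19.3 in the line (SD, n = 3) and 192 ± 23.4 in the wild type (SD, n = 4), a line difference of -0.30.

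AT2G15560 resembled genes that were high in the replicate 1 wild type. The list held AT1G67300 (0.87), AT3G07720 (0.84) and 3 plastid-encoded genes, matK (0.84), a plastid intron maturase, ccsA (0.81), which acts in cytochrome c assembly, and clpP (0.81), a protease subunit. The matK signal in the line was 50.6 with dexamethasone, and 116 and 21.0 without it in replicates 1 and 2. In the wild type it was 337 and 22.7 with dexamethasone and 228 and 39.7 without it. Unlike AT2G15560, matK was also higher in the replicate 1 line than in the replicate 2 wild type. With replicate means subtracted, the closest were AT3G60420 (0.91), AT4G22450 (0.84), matK (0.83), AT1G26390 (0.83) and clpP (0.71).

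**Figure D4:**
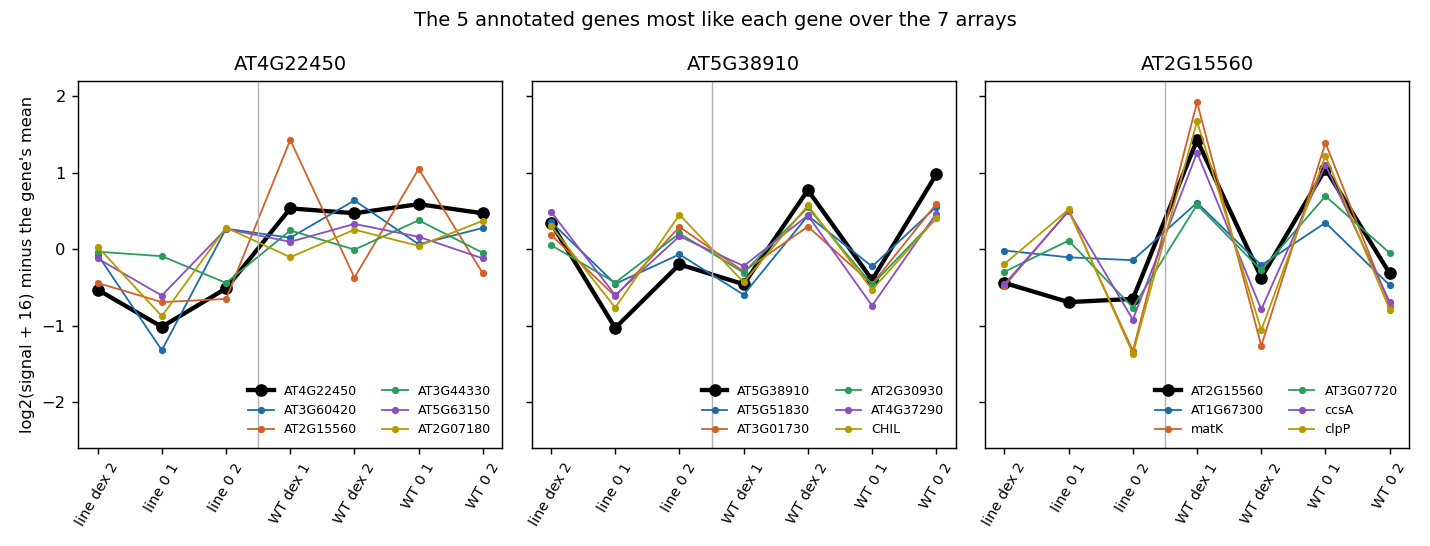
Log2(signal + 16) minus the gene's own mean over the 7 arrays, for each of the 3 genes (black) and the 5 annotated genes with the highest Pearson's r to it. The line is left and the wild type (WT) right of the grey rule, array labels give the steroid (dex or 0 for none) and then the replicate, and lines only join the points of a gene. AT5G38910 and its matches are higher in replicate 2, and AT2G15560 and its matches peak in the replicate 1 wild type.

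Among the 3 genes themselves, r over the 7 arrays was 0.68 between AT4G22450 and AT2G15560, 0.45 between AT4G22450 and AT5G38910 and -0.26 between AT5G38910 and AT2G15560. With replicate means subtracted these values were 0.84, 0.85 and 0.59. The genes were chosen for the same line difference, so a shared part of their pattern was fixed by that choice.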

How the data were processed

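Root RNA was measured on 7 Affymetrix ATH1 arrays. The deposited intensity values are 1 linear signal per probe set and array, and their 2% trimmed mean was 100.0 on each array. The summary method is not given in the sources used here. Groups and replicate numbers came from the sample labels. After 64 control probe sets were removed, the 10183 with a mean signal of at least 50 were tested on log2(signal + 16) with limma 3.58.1 in R 4.3.3 (eBayes with a trend, Benjamini-Hochberg over all tested). Log2 differences understate changes of dim probe sets. The lone treated line array takes its spread from the other groups.

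The members, lists and tests were chosen with earlier results of these data known. Named genes were the members, the 5 closest by r, adjoining genes, the next lower genes without overlap, and the brightest list members. The annotation paired 13513 probe sets with 1 gene, and 13436 matched the RefSeq table (TAIR10.1). Its coordinates gave the members' chromosomes and the order of neighbouring genes. A planned list of relatives of AT2G15560 by description was dropped because that table has no descriptions.

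Replicate numbers, from the labels, paired the arrays: deviations from group means correlated at 0.472, 0.622 and 0.826 between same-numbered arrays. The replicate block, quantile scaling, median centring, other added values and filters, no trend, and leaving out each array were the alternatives. On simulated data the fits recovered the sizes of the differences put in, but the test of the added dexamethasone effect made no call without the block. Whether replicates came from separate cultures is not stated, so p-values measure the spread between these samples.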

Additional observations from a re-analysis of the deposited data

How the results depend on the processing

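The lower signal of AT4G22450 in the line kept its sign under all 15 alternatives over both treatments. Its values ran from -1.38 to -0.84, the latter with 64 added before the log. AT2G15560 kept its sign under 14 (-1.35 to -0.66, untested at a minimum signal of 100) and AT5G38910 under 15 (-0.90 to -0.013). The genes were chosen for this difference, and all line arrays of AT4G22450 and AT2G15560 lay below all wild type arrays. A kept sign is therefore a description and no support for the difference. For AT5G38910 the treated difference of 0.19 turned to -0.39 with the replicate block and ran from -0.43 to 0.80 with 1 array left out.

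The count for the line over both treatments moved to 1 probe set with the replicate block, with median centring, with 1 added before the log and at a minimum signal of 100. With 1 array left out it was 0 to 1, as it was in the untreated and treated line comparisons, the 1 arising each time without the untreated line of replicate 2. Each time it was the same probe set, higher in the line and not a member. The replicate count was 468 without a filter and 39 to 2850 with 1 array left out, the lowest when replicate 1 of the treated wild type was dropped and the highest when replicate 2 of the untreated wild type was.

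The added effect of dexamethasone stayed uncalled under all alternatives run. For AT2G15560 it was -0.0100 with 64 added and ranged from -0.83 to 0.97 with 1 array left out, with -0.62 when replicate 1 of the untreated wild type was dropped and -0.83 when replicate 2 of the treated wild type was. Other uncalled values changed sign with 1 array left out. Dexamethasone in the wild type ranged from -0.087 to 0.033 for AT4G22450, also 0.0045, from -0.82 to 0.56 for AT5G38910, also 0.48, and from -0.74 to 1.06 for AT2G15560, also -0.52. For AT4G22450 dexamethasone in the line ran from -0.017 to 0.49 and the replicate difference from -0.091 to 0.22, and for AT5G38910 the line difference between replicates ran from -0.55 to 0.20. The replicate block changed no member's call. The causes were not tested, and the number of arrays limits all of these values.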
